A study of Mus musculus with 13 samples.

Results

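The mitochondrial respiratory chain genes encode the nuclear subunits of the 5 complexes that carry electrons from food to oxygen and make ATP. They were chosen here by gene symbol, as the subunits of complexes I to V and the Ndufaf assembly factors of complex I, each with the brightest probe of the gene. This gave 89 of the 19938 genes on the array that have a probe of their own. By symbol they are 36 subunits of complex I (Ndufa4, now known as a part of complex IV, is counted here), 7 assembly factors of complex I, 4 subunits of complex II, 8 of complex III, 17 of complex IV and 17 of complex V. Of these, 88 were bright enough to be tested. The exception was Cox7b2, a form of a complex IV subunit known from testis, whose mean of 6.88 log2 lay below the floor of 7.61 log2. The choice used no measured change, only the symbol and the brightness of the probe.

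Complex I oxidises NADH and complex II oxidises succinate. Complex III passes the electrons from ubiquinol to cytochrome c, complex IV passes them from cytochrome c to oxygen, and complex V, the ATP synthase, uses the proton gradient so made. Complex IV is known for paired tissue forms of some of its small subunits: Cox6a2, Cox7a1 and Cox8b are the forms of heart and skeletal muscle, and Cox6a1, Cox7a2 and Cox8a are the forms made in most other tissues. Mouse back skin carries under its fat a thin sheet of skeletal muscle, the panniculus carnosus, so that whole skin holds keratinocytes, fibroblasts, fat and muscle together.

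All samples came from the back skin, taken whole, of C57Bl6 males on postnatal day 30, an age at which their follicles were in anagen and growing hair. No genetic change or treatment is named. Lights were on for 12 h and off for 12 h, and chow was given at will. Skin was taken every 4 h from ZT2 to ZT50, where ZT0 is lights on, and RNA of 3 mice was pooled in equal amounts for each of the 13 arrays, 39 mice in all. There are 3 pools at 2 h after lights on and 2 at each of 6, 10, 14, 18 and 22 h, 7 in the light and 6 in the dark. A pool hides the spread between its mice, and the p-values measure the spread between pools.

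Markers of the skin's cell types were present in every pool, as the tissue label says. The summed intensity of 5 basal epidermal genes lay between 35042 and 39630, and that of 8 white fat genes between 21297 and 26491. Fast skeletal muscle varied more: 14 of 14 markers were measured, and their summed intensity ran from 38464 in ZT2 to 80003 in ZT42. The 9 genes of slow and oxidative muscle, all measured, summed to 9503 to 11205. Liver genes, 7 of 7 measured, summed to 28611 in ZT46 and to at most 6581 in the light pools, and albumin (Alb) stood at 10035 in ZT46, the pool that stands apart by these genes. In tissue, fewer muscle fibres and less RNA per fibre cannot be told apart. The mean log2 intensity of Acta1, Ckm and Myh4, the skeletal actin, the muscle creatine kinase and a fast myosin, served as the muscle covariate. It ran from 12.35 in ZT2 to 13.34 in ZT42.

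The 3 muscle forms of complex IV moved with the muscle content of the pools, and the forms made in most tissues did not pass that test. Cox6a2 had intensities of 1428, 2165.9, 3067, 2361, 1219, 1706, 2684, 2466, 2937, 2299.8, 3261, 1512 and 2815 in the pools from ZT2 to ZT50 in order. Cox7a1 stood at 701.0, 971.5, 1236, 999.5, 750.5, 883.1, 1409.7, 1423, 1358, 1088, 1638, 837.4 and 1298. Cox8b stood at 827.1, 1093, 1331, 1285, 740.9, 1110.5, 1908.5, 1845.5, 1732, 1194.5, 1743, 899.2 and 1686. ZT2, ZT18 and ZT46 were the 3 lowest pools of all 3 genes, and a light pool, a dark pool and a dark pool respectively, so that the light and dark ranges overlapped. The highest pool was ZT42 for Cox6a2 and Cox7a1, and ZT26 for Cox8b, while ZT42 was also the pool of highest muscle content. The highest pool exceeded the lowest 2.67-fold for Cox6a2, 2.34-fold for Cox7a1 and 2.58-fold for Cox8b. Their partners moved far less: Cox6a1 lay between 4295 and 5204 (median 4768), Cox7a2 between 2511 and 3018 (median 2749.9) and Cox8a between 8570 and 9371 (median 8896).

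**Figure D1:**
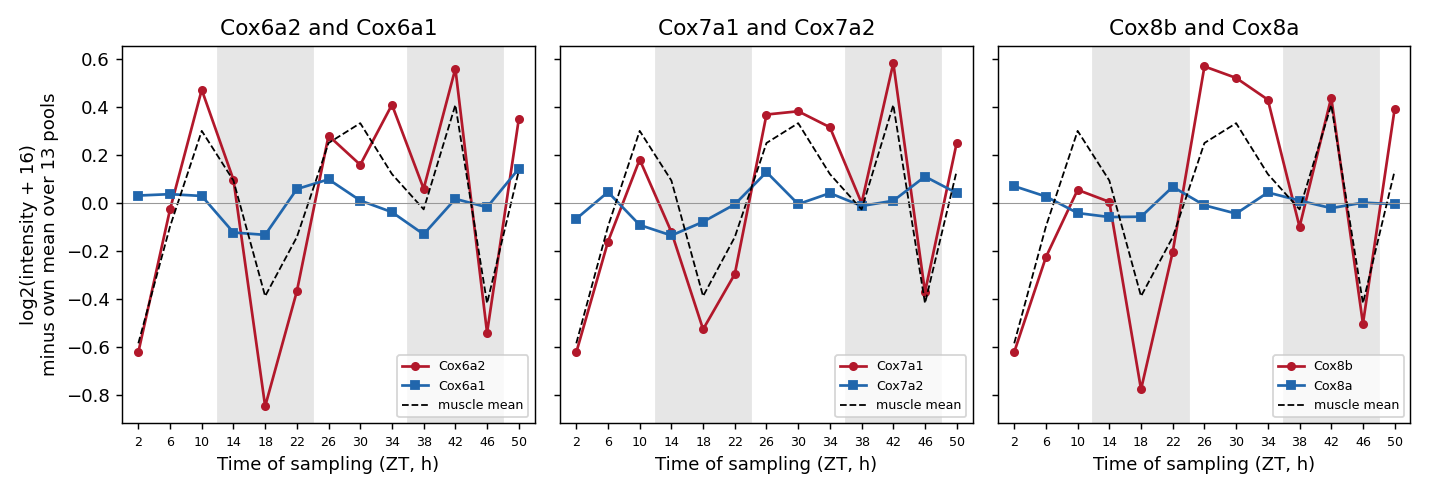
Level of the muscle form (red circles) and of the form made in most tissues (blue squares) of 3 complex IV subunits in the 13 pools, as log2(intensity + 16) minus the gene's own mean over the pools, against the time of sampling in hours (ZT). The dashed line is the mean of Acta1, Ckm and Myh4, centred the same way, and grey marks dark. The muscle forms dip in ZT2, ZT18 and ZT46 with the dashed line, while the squares stay near 0.

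The slope on the muscle mean, in log2 per log2 unit and fitted beside the 24 h wave and linear time, put numbers on this. A slope of 1 means that a gene changed in proportion to the muscle mean. Over all 16322 genes tested 124 passed with a positive slope (0.76 percent) and 0 with a negative one (0 percent; 268 at an unadjusted p under 0.05, limma). Of the 88 members 3 passed, Cox8b with a slope of 1.21 ± 0.16 (SE, 13 pools), Cox6a2 with 1.13 ± 0.19 and Cox7a1 with 1.04 ± 0.12, all positive. At an unadjusted p under 0.05 stood 6 members with a positive slope and 0 with a negative one, beside 2.59 and 1.64 percent of all genes. The adjusted p (limma, Benjamini-Hochberg over all genes) was 0.00113 for Cox8b, 0.00799 for Cox6a2 and 3.06e-04 for Cox7a1. The 95 percent intervals ran from 0.86 to 1.55 for Cox8b, from 0.72 to 1.54 for Cox6a2 and from 0.78 to 1.29 for Cox7a1, and each holds 1. The partner forms had intervals of -0.04 to 0.32 (Cox6a1), -0.20 to 0.19 (Cox7a2) and -0.25 to 0.12 (Cox8a).

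The difference between the forms was tested itself, as the log2 ratio of the 2 forms in each pool. The slope of Cox6a2 exceeded that of Cox6a1 by 0.99 ± 0.17 (SE; adjusted p in limma 0.00784), that of Cox7a1 exceeded Cox7a2 by 1.04 ± 0.11 (1.92e-04), and that of Cox8b exceeded Cox8a by 1.27 ± 0.15 (3.48e-04). Complex IV has further paired forms that are not muscle forms. Cox4i2, the form known from lung and from low oxygen, differed from Cox4i1 by -0.15 ± 0.14, and Cox6b2, a form known from testis, differed from Cox6b1 by -0.21 ± 0.16 (adjusted p 0.999 for both). Cox8c, another form known from testis, had a slope of -0.19 ± 0.21.

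The muscle call rests on which muscle genes stand for muscle. With the mean of Mylpf, Tnnt3, Tnnc2 and Pvalb the same 3 members passed, but with that of Myh1, Myh2, Tnnt1 and Myl2, which mixes fast and slow fibre genes, 0 members and 5 of all genes passed. The slopes were then 0.85 ± 0.32 for Cox6a2, 0.76 ± 0.26 for Cox7a1 and 0.81 ± 0.33 for Cox8b (SE; adjusted p in limma 0.995 or more for each). Without the ZT42 pool, Cox6a2 kept a slope of 0.94 but not the call (adjusted p 0.174). Among the marker lists, 13 of the 14 fast muscle genes, the 3 of the covariate itself included, passed with a positive slope. Of the 9 slow and oxidative ones 0 passed, and their slopes ran from -0.27 to 1.48 with a median of -0.09. At an unadjusted p under 0.05 in limma stood 2 of the 9 with a positive slope and 0 with a negative one. The shares over all genes were 2.59 and 1.64 percent.

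The other 85 members, from complexes I to V, showed no slope that passed (smallest adjusted p 0.999 in limma). Their slopes ran from -0.19 to 0.30 with a median of 0.03, and 56 of the 85 were positive, against 37.9 percent of all genes and a median of -0.03 over all genes. The highest upper end of the 95 percent intervals was 0.65. It was above 0.5 for 3 of the 85 genes: Ndufa6, an accessory subunit of complex I with a slope of 0.26 ± 0.12, Ndufa4l2 with 0.09 ± 0.20, and the assembly factor Ndufaf2 with 0.30 ± 0.16. The core subunits lay on both sides of 0, from Uqcrc1 of complex III at -0.13 ± 0.11 to Ndufv2 of complex I at 0.15 ± 0.10. Between them lay Sdha, the flavoprotein of complex II, at 0.10 ± 0.11. Atp5b, the catalytic beta subunit of complex V, stood at 0.01 ± 0.09, and Ndufs1, an iron-sulfur subunit of complex I, at 0.01 ± 0.12.

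**Figure D2:**
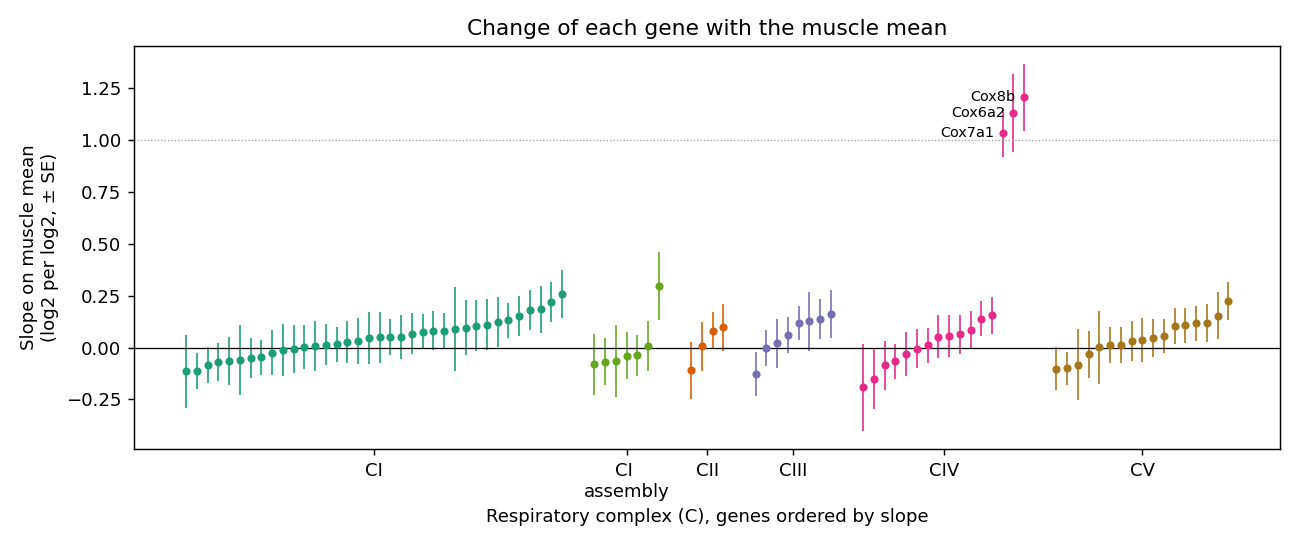
Slope of each of the 88 tested genes on the mean of Acta1, Ckm and Myh4 (log2 per log2 unit, points, with SE as bars), grouped by respiratory complex (C) and ordered by slope within it. The dotted line marks a slope of 1. Cox6a2, Cox7a1 and Cox8b sit between 1.04 and 1.21, and the other 85 genes between -0.19 and 0.30.

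With the muscle mean in the fit, the pool-to-pool scatter of the 3 muscle forms shrank. The residual SD fell from 0.366 to 0.150 log2 for Cox8b, from 0.361 to 0.184 for Cox6a2 and from 0.304 to 0.0974 for Cox7a1. Their fitted 24 h amplitudes went from 0.39 to 0.17, from 0.44 to 0.16 and from 0.31 to 0.07 log2, and their drifts per day from 0.43 to 0.16, from 0.36 to 0.11 and from 0.38 to 0.15 log2. The muscle mean itself had a fitted amplitude of 0.25 log2 with a peak at 9.4 h, close to the fitted peaks of the muscle forms at 7.8 h (Cox8b), 8.7 h (Cox7a1) and 9.1 h (Cox6a2).

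The start regions of the paired forms are shown as a description. A link between these sequences and the different movement of the 2 forms was not tested. Each line gives the 250 bases before the start site in mouse, from RefSeq on GRCm38.p6, 5′ to 3′, with CpG pairs in capitals. RefSeq's promoter table held 73 of the 89 genes; Cox6a2 was not among them. The order is Cox7a1 (chr7:30183921-30184170, plus strand), Cox7a2 (chr9:79759854-79760103, minus strand), Cox8b (chr7:140900447-140900696, minus strand), Cox8a (chr19:7217617-7217866, minus strand) and Cox6a1 (chr5:115348959-115349208, minus strand).
Cox7a1: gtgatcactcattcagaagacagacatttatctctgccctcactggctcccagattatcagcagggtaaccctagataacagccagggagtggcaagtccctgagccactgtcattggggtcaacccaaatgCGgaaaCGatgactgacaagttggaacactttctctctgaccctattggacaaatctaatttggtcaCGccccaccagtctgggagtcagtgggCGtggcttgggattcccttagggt
Cox7a2: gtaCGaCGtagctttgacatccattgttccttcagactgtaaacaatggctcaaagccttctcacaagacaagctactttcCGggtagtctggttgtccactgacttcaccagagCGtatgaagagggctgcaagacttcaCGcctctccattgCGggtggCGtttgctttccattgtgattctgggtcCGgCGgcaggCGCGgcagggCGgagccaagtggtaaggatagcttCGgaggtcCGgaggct
Cox8b: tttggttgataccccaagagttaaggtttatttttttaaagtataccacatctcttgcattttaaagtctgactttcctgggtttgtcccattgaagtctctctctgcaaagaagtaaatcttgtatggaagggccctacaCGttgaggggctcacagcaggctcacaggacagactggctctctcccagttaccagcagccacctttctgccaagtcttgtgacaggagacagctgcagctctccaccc
Cox8a: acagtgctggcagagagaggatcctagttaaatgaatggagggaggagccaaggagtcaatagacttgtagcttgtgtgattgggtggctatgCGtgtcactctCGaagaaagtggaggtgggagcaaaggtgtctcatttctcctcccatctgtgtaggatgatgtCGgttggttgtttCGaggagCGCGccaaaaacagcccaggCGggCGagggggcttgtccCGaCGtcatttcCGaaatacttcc
Cox6a1: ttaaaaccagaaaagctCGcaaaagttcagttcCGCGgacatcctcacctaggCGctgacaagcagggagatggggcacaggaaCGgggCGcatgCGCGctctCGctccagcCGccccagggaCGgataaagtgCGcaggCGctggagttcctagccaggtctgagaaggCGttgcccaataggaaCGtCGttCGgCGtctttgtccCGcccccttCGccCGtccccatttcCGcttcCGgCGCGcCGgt

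The windows of the other 2 muscle forms hold few CpG pairs, 4 for Cox7a1 and 1 for Cox8b, against 14 for Cox7a2, 11 for Cox8a and 26 for Cox6a1. The median over the members' 78 windows was 14.5, and that over all 32851 windows of the table was 6. In windows of 300 bases, 250 before and 50 after the start, and on both strands, the NRF1 motif, GCGC and again GCGC with any 2 bases between them, stood in 26.9 percent of the members' windows and 6.23 percent of all. The ETS motif CCGGAAG stood in 23.1 and 8.86 percent, the YY1 core AANATGGC in 23.1 and 6.05 percent, and the site AAGGTCA of estrogen-related receptors in 8.97 and 4.72 percent. The members' windows were also richer in G and C (median 56.8 percent against 52.4 percent), and the part of that in the motif counts was not tested. Cox6a1 carries GCGCATGCGC at 162 to 153 bases before its start, GCGCAGGCGC at 117 to 108 and CTTCCGG, the ETS motif on the other strand, at 16 to 10. The E-box CAGCTG, of the kind bound by muscle regulators such as MyoD, stands at 19 to 14 bases before the start of Cox8b. It was not found for Cox7a1, and stood in 7.69 percent of the members' windows against 16.3 percent of all. The core site of the muscle regulator MEF2 stood in 2.56 and 3.69 percent. Among the members it was found for Cox5b and Ndufaf5, and for neither Cox7a1 nor Cox8b. The TATA box stood in 11.5 and 13.6 percent, and was found for Cox8b but not for Cox7a1. The clock's E-box CACGTG stood in 8.97 percent of the members' windows and 7.15 percent of all. Motif matches are descriptions of letters.

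The next question was whether the chain follows the day. The fitted 24 h wave was small in nearly every member, with a median peak-to-trough fold of 1.097 (median amplitude 0.07 log2) against 1.088 over all genes. In limma 0 of the 88 members passed (smallest adjusted p 0.264), where 23 of 16322 genes did (0.141 percent). At an unadjusted p under 0.05 stood 23 members, 26.1 percent of them, beside 9.54 percent of all genes. In this fit, without the muscle mean, the excess depended on the linear time term. Without linear time 10 members stood there beside 10.25 percent of all genes. With cycle number in its place 11 stood there beside 10.6 percent, and both shares are near the background. The highest pool exceeded the lowest by a median of 1.26-fold over the members. The range over pools was widest in the 3 muscle forms, then in Ndufa4l2 (1.98-fold) and Ndufs5 (1.62-fold), and narrowest in Atp5d (1.09-fold).

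Ndufa4l2 had the largest fitted wave outside the muscle forms. It encodes a relative of Ndufa4 that is known to be induced in low oxygen. The 3 pools at 2 h after lights on had intensities of 980.4, 1245 and 1000.3 (mean 1075 ± 148, SD). Values were 746.9 and 1026 at 6 h, 730.0 and 943.4 at 10 h, 764.7 and 629.7 at 14 h, 712.4 and 682.7 at 18 h, and 932.3 and 953.1 at 22 h. ZT38 was thus its lowest pool and ZT26 its highest, and the 3 pools at 2 h all lay above the 4 pools at 14 and 18 h. The fitted fold was 1.52 (amplitude 0.30 ± 0.06 log2, SE) with a peak at 2.8 h, and it did not pass (adjusted p in limma 0.264). Over the fits that leave out 1 pool, its adjusted p ranged from 0.0880 (without ZT6) to 0.531.

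Some small subunits of complex III also had larger fitted waves than most members. Uqcr11 stood at 1418 to 2219 (median 1779), with a fitted fold of 1.28 and a peak at 3.9 h, Uqcr10 at 1487 to 2043 (median 1791), with 1.23 and 6.4 h, Uqcrq at 1839 to 2354 (median 2109.8), with 1.18 and 4.6 h, and Uqcrb at 4593 to 6867 (median 5747), with 1.26 and 0.7 h. Together with Uqcrfs1, the Rieske iron-sulfur protein (1.11-fold, 2.0 h), they are the 5 of 8 complex III genes at an unadjusted p under 0.05. The share of all genes there was 9.54 percent, and 0 of the 8 passed (smallest adjusted p 0.310 in limma). The count for complex III was not repeated without linear time, on which the excess over all members depended in this fit. Uqcrh, another small subunit, had a fitted fold of 1.11 (unadjusted p in limma 0.213). The core proteins Uqcrc1 and Uqcrc2 had fitted folds of 1.01 and 1.08. The median amplitude was 0.10 log2 in complex III, 0.07 in complexes I, II and IV, 0.06 in complex V and 0.03 in the assembly factors.

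In complex IV, Cox7a2l, a relative of the Cox7a subunits, stood at 973.8 to 1435 (median 1177), with a fitted fold of 1.24 and a peak at 4.4 h (adjusted p 0.269 in limma). Cox6a1 had 1.14 and 2.9 h, Cox6b1 1.14 and 3.8 h, and Cox4i1, a core partner of the catalytic center, 1.08 and 4.1 h. Complex V held Atp5mpl, a small membrane subunit, at 1564 to 2341 (median 1855), with 1.23 and 4.7 h (adjusted p 0.339). Most catalytic and rotor parts of complex V were flatter. The fitted folds were 1.03 for Atp5a1, 1.06 for Atp5b, 1.03 for Atp5c1 and 1.025 for Atp5d. They were 1.05 for Atp5g1, 1.06 for Atp5g2 and 1.102 for Atp5g3. Atp5e, another rotor part, was the exception with 1.197 (unadjusted p in limma 0.114).

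The core of complex I was flat as well. The fitted folds were 1.05 for Ndufs1, 1.06 for Ndufs3, 1.08 for Ndufs7, 1.06 for Ndufs8, 1.05 for Ndufv1 and 1.05 for Ndufv2, while Ndufv3, a small part of the NADH-binding arm, had 1.16 with a peak at 1.8 h (adjusted p 0.476 in limma). In complex II, the link to the citric acid cycle, Sdhb, the iron-sulfur subunit, had 1.14 and a peak at 5.7 h, and Sdhd, a membrane anchor, 1.13 and 8.6 h. The other anchor Sdhc had 1.07 with a fitted peak at 15.6 h, and Sdha had 1.02. The 7 assembly factors of complex I had fitted folds of 1.03 to 1.12, the highest in Ndufaf4 with a peak at 16.6 h, and none reached an unadjusted p under 0.05.

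What the members shared was the hour of the fitted peak. It fell in the light for 76 of the 88 (86.4 percent), against 45.8 percent of all genes tested, with 47 peaks between 0 and 6 h, 29 between 6 and 12 h, 4 between 12 and 18 h and 8 between 18 and 24 h. By complex it fell in the light for 33 of 36 genes in complex I, 2 of 4 in complex II, 7 of 8 in complex III, 14 of 16 in complex IV and 16 of 17 in complex V, and for 4 of the 7 assembly factors. With the muscle mean in the fit the count was 75 (85.2 percent) against 48.3 percent of all genes. The members are read from the same pools, so that a shift of 1 pool moves many of them at once, and these counts carry no test.

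**Figure D3:**
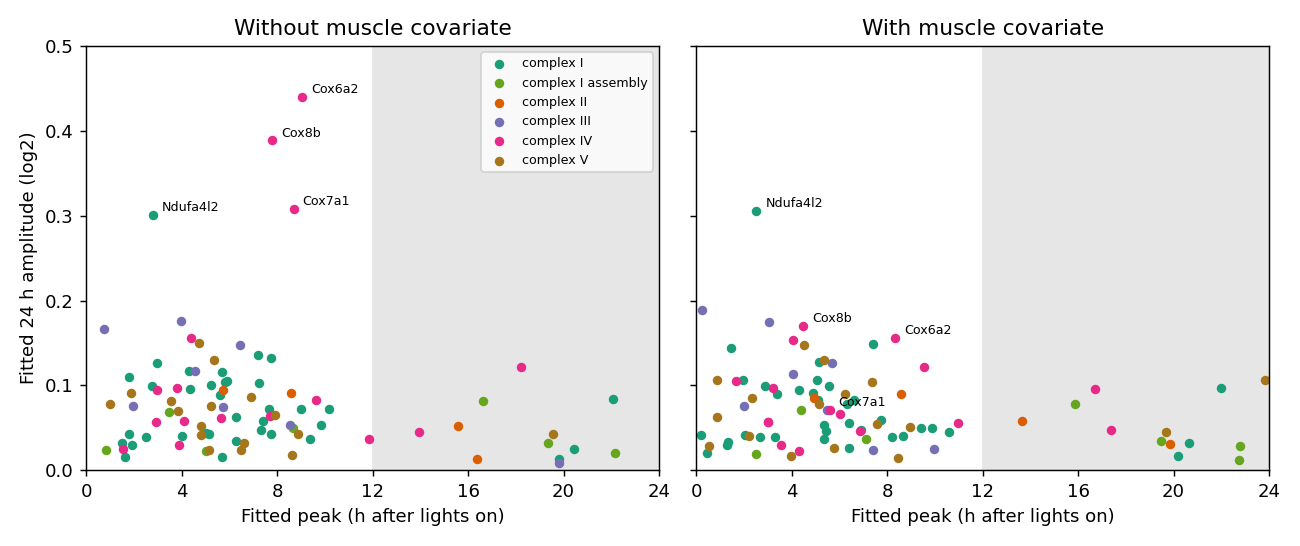
Fitted 24 h amplitude (log2) against the fitted peak (hours after lights on) for the 88 tested genes, coloured by complex, without the muscle covariate (left) and with it (right); grey marks dark. Most points lie in the light hours at amplitudes under 0.2, and Cox6a2, Cox7a1 and Cox8b drop from 0.31 to 0.44 on the left to 0.07 to 0.17 on the right, while Ndufa4l2 stays at 0.30 and 0.31.

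Other gene lists also had most of their fitted peaks in the light. This held for 65 of 77 genes of the mitochondrial ribosome (84.4 percent), for 55 of 70 of the cytosolic ribosome (78.6 percent) and for 12 of 17 of the citric acid cycle (70.6 percent). The share over all genes also depended on scaling. With each array centred on its median it was 62.2 percent of all genes and 82 of the 88 members, and among the 11367 genes left by a stricter brightness floor, the 50th percentile of probes, it was 56.1 percent. The members' probes were brighter than most, with a median of 11.14 log2 against 9.66 over all genes, and the part of brightness in the peak hours was not tested.

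The pool in which members were most often lowest was ZT18, in the dark, with 37 of the 88, followed by ZT14 with 13 and ZT10 with 12. ZT50 and ZT34, both in the light, were the highest for 19 and 17. The lowest and highest pools of all genes were not counted, so these counts are not read as particular to the members. Without the 3 muscle forms, the mean profiles of complexes I, III, IV and V all had their lowest point in ZT18, at -0.13, -0.14, -0.09 and -0.13 log2 from the mean over pools, and their highest in ZT50, at 0.09, 0.10, 0.07 and 0.09. Complex II differed, with its lowest point in ZT38 (-0.07) and its highest in ZT34 (0.11). ZT42, at the same time of day as ZT18 and a day later, was the lowest pool of 2 members. Without ZT18, the fitted peak fell in the light for 69 of the 88 members and 52.3 percent of all genes, and 15 members stood at an unadjusted p under 0.05 for the wave, beside 10.0 percent of all genes.

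**Figure D4:**
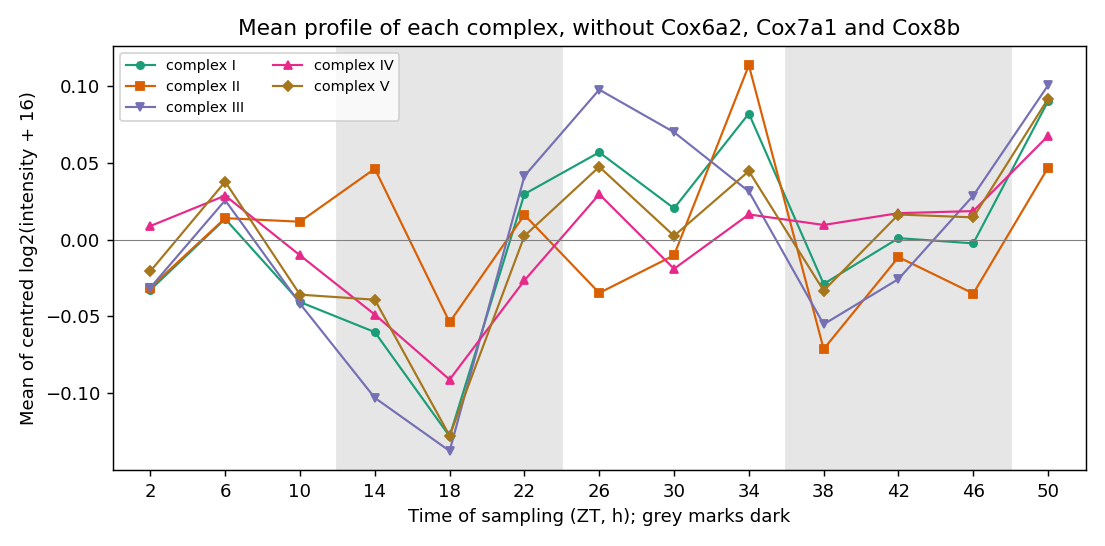
Mean profile of each complex over the 13 pools, as log2(intensity + 16) minus each gene's mean and averaged over the genes of the complex without Cox6a2, Cox7a1 and Cox8b, against the time of sampling (ZT, h); grey marks dark. Complexes I, III, IV and V share a low point in ZT18, between -0.14 and -0.09, and a high point in ZT50, between 0.07 and 0.10; complex II does not.

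Taking muscle into the fit changed the wave little outside the muscle forms. In limma 0 of 88 members passed (smallest adjusted p 0.363), beside 0.0919 percent of all genes, and 17 members (19.3 percent) stood at an unadjusted p under 0.05 beside 7.41 percent. The smallest p belonged to Ndufa4l2, Uqcr11 and Cox7a2l, with fitted folds of 1.53, 1.27 and 1.24. The median amplitude of the members was 0.06 log2, as over all genes. When linear time was left out of this fit, 17 members stood at an unadjusted p under 0.05 for the wave, beside 10.4 percent of all genes. With cycle number in its place 9 stood there beside 8.86 percent.

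The drift over the 48 h, the linear change per day beside the wave, was mostly upward. In limma 0 of 88 members passed (smallest adjusted p 0.256), as 0 percent of all genes did. It was positive in 64 of the 88 members (72.7 percent) and in 43.5 percent of all genes, with a median of 0.05 log2 per day against -0.01. At an unadjusted p under 0.05 stood 22 members with a rise and 1 with a fall, Ndufa9 (-0.08 ± 0.04 log2 per day, SE), beside 3.22 and 5.59 percent of all genes. Upward values ran through complex I (30 of 36), complex IV (12 of 16) and complex V (13 of 17), with 5 of 8 in complex III, 2 of 4 in complex II and 2 of 7 assembly factors.

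Uqcr11 and Ndufb2 had the smallest p. Uqcr11 read 1621, 1612, 1538, 1477 and 1418 in the pools from ZT2 to ZT18, and from ZT22 on 1895.5, 2219, 2051, 1929.8, 1779, 1759, 1897 and 2153. Its first 5 pools thus all lay below its later 8. The drift was 0.23 ± 0.05 log2 per day (SE; adjusted p in limma 0.256). By the second, dimmer probe of Uqcr11 it was 0.15, and 0.11 with the muscle mean in the fit. Ndufb2, an accessory subunit of complex I, lay between 640.3 and 713.6 in the first 5 pools and between 710.5 and 949.8 in the later 8, with ZT38 the only overlap, and had a drift of 0.22 ± 0.04 (0.256). Cox5a (0.16 ± 0.04), Atp5mpl (0.16 ± 0.04), Uqcr10 (0.16 ± 0.04) and Cox7a2l (0.15 ± 0.04) came next, each with an adjusted p of 0.325 or 0.326. The catalytic subunits Atp5a1 and Atp5b read -0.04 ± 0.03 and -0.06 ± 0.03 instead.

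Drift was also read with muscle in the fit, since the muscle mean itself had a drift of 0.22 ± 0.13 log2 per day (SE). In limma 0 of 88 members passed (smallest adjusted p 0.988), as 0 percent of all genes did, and 67 members (76.1 percent) had a positive value against 46.7 percent of all genes. At an unadjusted p under 0.05 stood 11 members with a rise and 0 with a fall, beside 2.02 and 2.54 percent. Ndufb2 kept 0.17 ± 0.04, Uqcr11 0.20 ± 0.05 and Cox5a 0.17 ± 0.05 log2 per day. Without the ZT2 pool, 11 members in place of 23 stood at an unadjusted p under 0.05 for drift in either direction, without the muscle mean. The share of all genes in that fit was not counted, so this fall is not read as particular to the members. Upward drift was also the commoner sign in the cytosolic ribosome (54 of 70 genes) and the mitochondrial ribosome (49 of 77) in the fit without the muscle mean. All genes there had 43.5 percent. With the muscle mean the counts were 55 and 47, beside 46.7 percent.

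In the other lists of the pathway, the genes that passed the muscle test were muscle forms as well. Of 9 carriers and related genes tested, 1 passed the muscle test, Ckmt2, the muscle form of mitochondrial creatine kinase, with a slope of 1.12 ± 0.14 (SE; adjusted p in limma 7.30e-04). Slc25a4, the adenine nucleotide carrier of heart and muscle, had 0.40 ± 0.10 (0.190), and Ucp3, an uncoupling protein of muscle, 0.36 ± 0.14 (0.964). In the cytosolic ribosome 1 of 70 genes passed, Rpl3l, the muscle form of the ribosomal protein L3, with 0.998 ± 0.096 (8.71e-05). In the mitochondrial ribosome 0 of 77 passed, in the citric acid cycle 0 of 17, among electron carriers and assembly factors 0 of 41 and among regulators of mitochondrial biogenesis 0 of 20, with 124 of all genes passing in limma. Cycs, cytochrome c, had a slope of 0.42 ± 0.16 (adjusted p 0.906).

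Of the mitochondrially encoded genes, 2 were measured. COX2, a catalytic subunit of complex IV, had a slope of 0.22 ± 0.10 and ND3, of complex I, 0.23 ± 0.11 (SE; adjusted p in limma 0.999 for both). No gene of these lists passed the wave test in limma, with or without the muscle mean. The smallest p with it belonged to Etfb, which feeds electrons from fatty acid oxidation into the chain (amplitude 0.12 log2, adjusted p 0.583), and Nubpl, an assembly factor of complex I (0.11, 0.622), among carriers and assembly factors, to Ppara, a receptor that drives fatty acid oxidation genes (0.12, 0.688), and Pprc1 (0.08, 0.697) among regulators, and to Fh1, fumarase (0.10, 0.697), in the citric acid cycle. In the ribosomes they belonged to Mrpl54 (0.24, 0.370) and Rps4l (0.17, 0.472).

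Genes read by several probes gave a check within the array. Of the 89 genes 17 had several probes. Those of Cox7b placed the fitted peak at 14.0 and 4.6 h, those of Ndufb11 at 19.8 and 5.4 h, and those of Ndufc1 at 20.4 and 2.0 h, at amplitudes of 0.06 log2 or less. The fitted peak hour of these flat genes thus differed between probes. The slopes of Cox7b, Ndufb11 and Ndufc1 on muscle lay between -0.01 and 0.16 by every probe. Some other genes had closer peaks, such as Uqcrb (0.7, 0.6 and 0.7 h) and Cox7a2l (4.4 and 5.1 h). Cox6a2, Cox7a1 and Cox8b, the members called by muscle slope, have 1 probe each, so this check does not cover them.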

How the data were processed

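Per the labels, total RNA of whole skin from 3 mice per pool was read on 1-colour Affymetrix whole-transcript arrays. The deposited table gives a linear intensity for each probe, judged by its range. The submitters' processing notes name PLIER 2.0 and Affymetrix Expression Console 1.1.1 without saying what each did. The scaling between arrays and the genome build are not given in the sources used here. Array medians lay between 440.0 and 483.2, and the number of arrays limits the precision.

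Of 35557 probes, 21789 carry 1 gene symbol in the platform annotation, 1621 several and 12147 none. Probes with several symbols were left out, among them 6 that name a member. Intensities were converted to log2(value + 16), so folds are on that scale. Genes were kept if their brightest probe averaged at least 7.61 log2, the 25th percentile over probes, which left 16322. The wave (cosine and sine of a 24 h period), linear time and, where named, the muscle mean were fitted in limma 3.58.1 (R 4.3.3) over 13 pools, with Benjamini-Hochberg adjustment over all genes and calls at an adjusted p under 0.05. The fits were tested on simulated data. Log2 ratios of paired forms were fitted as added rows. Intervals are at 95 percent. Figures were drawn with matplotlib 3.10.9.

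Named genes were the Sdh genes, paired forms, core subunits, assembly factors, the members called or of smallest p in each test, and in other lists those of smallest p with the muscle mean; Uqcrb, Ndufa6, Ndufs5, Slc25a4 and other members standing apart were named after their values were seen. The members and lists were chosen with earlier results of these data known. Symbols were checked against RefSeq (GRCm38.p6), which held all 89. Alternatives were other scaling, pseudocounts, filters, time terms, covariates and thresholds, and leaving out each pool.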

Additional observations from a re-analysis of the deposited data

How the results depend on the processing

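The count of 0 members called held for the wave and for drift, with and without the muscle mean, in every alternative and every fit that leaves out 1 pool (limma). The 3 members called by muscle slope held in 16 of 17 alternatives, and were 0 with the mean of Myh1, Myh2, Tnnt1 and Myl2. Without 1 pool the count ranged from 2 to 3, with Cox6a2 lost without ZT42. The median slope of all 88 members was 0.0405 and became -0.0105 with the mean of Myh1, Myh2, Tnnt1 and Myl2; the cause was not tested. With the muscle mean alone in the fit, an alternative added after seeing the data, the same 3 members passed. The median amplitude ranged from 0.0553 to 0.0868 log2 over alternatives and the median drift from 0.0372 to 0.0616 log2 per day. Without linear time 10 members, and with cycle number in its place 11, stood at an unadjusted p under 0.05 for the wave, beside 10.25 and 10.6 percent of all genes, against 23 beside 9.54 percent. With the muscle mean in the fit these counts were 17 and 9, beside 10.4 and 8.86 percent, against 17 beside 7.41 percent. The labels carry no replicate numbers that could pair pools, and pools of the same hour on the 2 days come from different mice. With the hour of the day as a block in place of the wave, which pairs the days by hour and was added after seeing the data, 0 members passed for drift with and without the muscle mean (limma), and the value was positive in 62 of 88 in each fit, beside 46.7 and 43.1 percent of all genes. With 13 arrays, small waves of the size seen here are close to the scatter between pools, whose median residual SD was 0.0784 log2 over the members.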

Other observations

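Other cell types' genes also varied with the muscle mean without passing. The 4 macrophage markers had slopes with a median of 0.30, and the 6 fibroblast markers a median of 0.15, all positive, while the 8 white fat markers were all negative with a median of -0.21. The 7 liver genes had a median slope of -1.99. All 7 stood at an unadjusted p under 0.05 in limma with a negative slope, beside 1.64 percent of all genes. ZT46, where the liver genes were highest, was also a pool of low muscle content. Their sum was lowest, at 3152, in ZT42, the pool of highest muscle content. Without ZT46 the same 3 respiratory chain genes passed the muscle test.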
